A study of Mus musculus with 57 samples.

Results

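GATA6 binding was compared between 8 h and 48 h after induction in mouse embryonic stem cells. The members were the 4 GATA6 peak lists of these time points, 2 at 8 h and 2 at 48 h, out of 57 samples in the series. Peaks of the 4 lists that shared at least 1 bp were merged into 42557 regions. A region with a peak in both lists of a time point was taken as a region of that time, which gave 21298 regions at 8 h and 4190 at 48 h. Regions of both times were called kept (2758 regions). Regions of 8 h without a peak in either 48 h list were called lost (16491), and regions of 48 h without a peak in either 8 h list were called gained (1154).

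GATA6 is a zinc finger transcription factor (TF) that recognizes GATA motifs and can open chromatin as a pioneer TF. In the blastocyst it drives the inner cell mass toward the primitive endoderm (PrE), while NANOG and SOX2 hold the epiblast (Epi) state that embryonic stem cells resemble. Its PrE targets include GATA4, a GATA factor with a closely related DNA-binding domain, and SOX17, and the PrE later lays down a basement membrane and takes up nutrients through endocytic receptors.

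Binding was mapped by CUT&RUN, in which an antibody directs a nuclease to the protein and the released DNA is sequenced, on 100000 cells per replicate. All cells were KH2 embryonic stem cells of C57BL/6 background with 1 TRE:GATA6-DSREd2 transgene, which a TET-responsive promoter drives on doxycycline. Cells kept in 2i medium were moved to serum medium with 1 µg/mL doxycycline, so the 8 h cells were still exposed to it, whereas the 48 h cells had received it for 12 h and then spent 36 h without it. Time since induction and the end of doxycycline therefore cannot be told apart. The line is a single engineered line, cells were pooled within each library, and peak lists hold no expression value by which cell identity could be checked. The time points follow the names of the deposited lists: the lists named 48 h were filed under records of 4 h, and the lists named 8 h under records of 48 h. The library names differ by time point, so library set and time cannot be told apart either.

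The sequences below show what the peak centers of the 3 classes look like, on the plus strand of mm10 (GRCm38), 100 bp on either side of the summit. Kept and gained windows are centered on the 48 h summit and lost windows on the 8 h summit. Kept examples are the region in an intron of Ephb1, an ephrin receptor gene (chr9:101995579-101995779), which had nearly equal folds at both times, the region upstream of Gata4 (chr14:63283574-63283774) and the region upstream of the laminin gene Lama1 (chr17:67683453-67683653). Lost examples are the intronic region of Lpcat3, the lost region with the highest 8 h fold (chr6:124683804-124684004), a GATA repeat with Med13l as its nearest gene (chr5:118458692-118458892), a GATA repeat at Fgf4 (chr7:144852655-144852855) and the region upstream of Nodal (chr10:61416061-61416261). Gained examples, the strongest of their class, are the regions near Fgfr2 (chr7:130134988-130135188) and in an intron of Maml3 (chr3:51823545-51823745). Capitals mark GATA motif matches and runs of GATA copies. The motif letters are given with the motif results.
Kept, Ephb1 intron: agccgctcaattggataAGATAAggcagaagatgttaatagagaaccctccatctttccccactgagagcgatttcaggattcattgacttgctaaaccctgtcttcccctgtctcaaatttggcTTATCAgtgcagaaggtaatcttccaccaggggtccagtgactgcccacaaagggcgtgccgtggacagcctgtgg
Kept, Gata4: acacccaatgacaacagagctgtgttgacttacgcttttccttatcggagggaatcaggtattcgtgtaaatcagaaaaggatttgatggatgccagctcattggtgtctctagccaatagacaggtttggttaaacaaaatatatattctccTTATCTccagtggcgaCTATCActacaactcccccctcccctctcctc
Kept, Lama1: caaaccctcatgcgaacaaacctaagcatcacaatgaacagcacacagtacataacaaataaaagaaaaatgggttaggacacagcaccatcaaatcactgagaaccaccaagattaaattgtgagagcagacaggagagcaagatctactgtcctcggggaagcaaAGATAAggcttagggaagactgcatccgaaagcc
Lost, Lpcat3: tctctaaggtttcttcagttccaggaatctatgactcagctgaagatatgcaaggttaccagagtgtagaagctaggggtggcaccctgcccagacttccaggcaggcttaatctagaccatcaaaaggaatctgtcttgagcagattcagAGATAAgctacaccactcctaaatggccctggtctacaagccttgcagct
Lost, Med13l repeat: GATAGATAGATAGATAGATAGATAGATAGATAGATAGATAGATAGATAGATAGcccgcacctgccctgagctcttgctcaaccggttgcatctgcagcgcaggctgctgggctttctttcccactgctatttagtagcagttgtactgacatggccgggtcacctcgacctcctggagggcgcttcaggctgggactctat
Lost, Fgf4 repeat: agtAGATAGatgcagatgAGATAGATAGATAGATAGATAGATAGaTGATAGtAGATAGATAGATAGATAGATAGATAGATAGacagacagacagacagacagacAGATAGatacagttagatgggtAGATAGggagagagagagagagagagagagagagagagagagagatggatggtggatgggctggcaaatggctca
Lost, Nodal: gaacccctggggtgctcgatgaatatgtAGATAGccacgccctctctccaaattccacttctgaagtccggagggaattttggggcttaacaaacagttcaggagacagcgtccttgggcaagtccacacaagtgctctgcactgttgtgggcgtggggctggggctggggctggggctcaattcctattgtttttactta
Gained, Fgfr2: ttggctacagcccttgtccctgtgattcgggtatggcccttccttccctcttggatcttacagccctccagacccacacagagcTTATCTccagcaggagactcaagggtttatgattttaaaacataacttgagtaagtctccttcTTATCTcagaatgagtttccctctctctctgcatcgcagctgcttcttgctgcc
Gained, Maml3: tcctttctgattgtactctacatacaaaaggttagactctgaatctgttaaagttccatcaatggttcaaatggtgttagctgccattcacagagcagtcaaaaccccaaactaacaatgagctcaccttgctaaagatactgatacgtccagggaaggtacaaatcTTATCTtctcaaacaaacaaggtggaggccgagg

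GATA6 had far fewer peaks at 48 h than at 8 h. The 8 h lists held 28676 and 30234 peaks and the 48 h lists 5933 and 9767, so the groups did not overlap. The means were 29455 ± 1102 and 7850 ± 2711 (SD, n = 2), a 3.75-fold difference. Peaks were also narrower at 48 h, with a median width of 252 and 239 bp against 341 and 358 bp at 8 h. The median fold, which is the fragment pileup at the summit over the local background as the peak caller gave it, was 5.67 and 5.94 at 8 h and 5.93 and 4.96 at 48 h, so these values overlapped. These medians are over lists of unequal length. Among the 5000 peaks of each list with the highest significance, the log2 median fold differed by -1.17 between 48 h and 8 h, and the median width by -464 bp. The highest fold was 167 and 157 in the 8 h lists, both in 1 region of mitochondrial DNA that also had peaks of the other proteins. In the 48 h lists it was 52.4 at Cd59a and 67.0 at Larp1. The nuclear Cd59a region had 68.5 and 87.7 at 8 h and 52.4 and 63.1 at 48 h. Within 5 kb of a transcription start site (TSS) of a protein-coding gene lay 19.4% and 20.6% of the 8 h peaks and 18.7% and 20.1% of the 48 h peaks. Two-sided exact permutation tests over 2 lists against 2 cannot give a p below 0.3333. They gave 0.3333 for peak number and width and 0.667 for fold and TSS share. The background coverage recovered from the lists, used in place of read depth, was 1.291 and 1.201 fragments per base at 8 h and 0.928 and 1.22 at 48 h. The shorter 48 h list had the lowest coverage, and the longer one a coverage within the range of the 8 h lists. The smallest pileup that passed at this background was 7 fragments in each of the 4 lists.

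**Figure D1:**
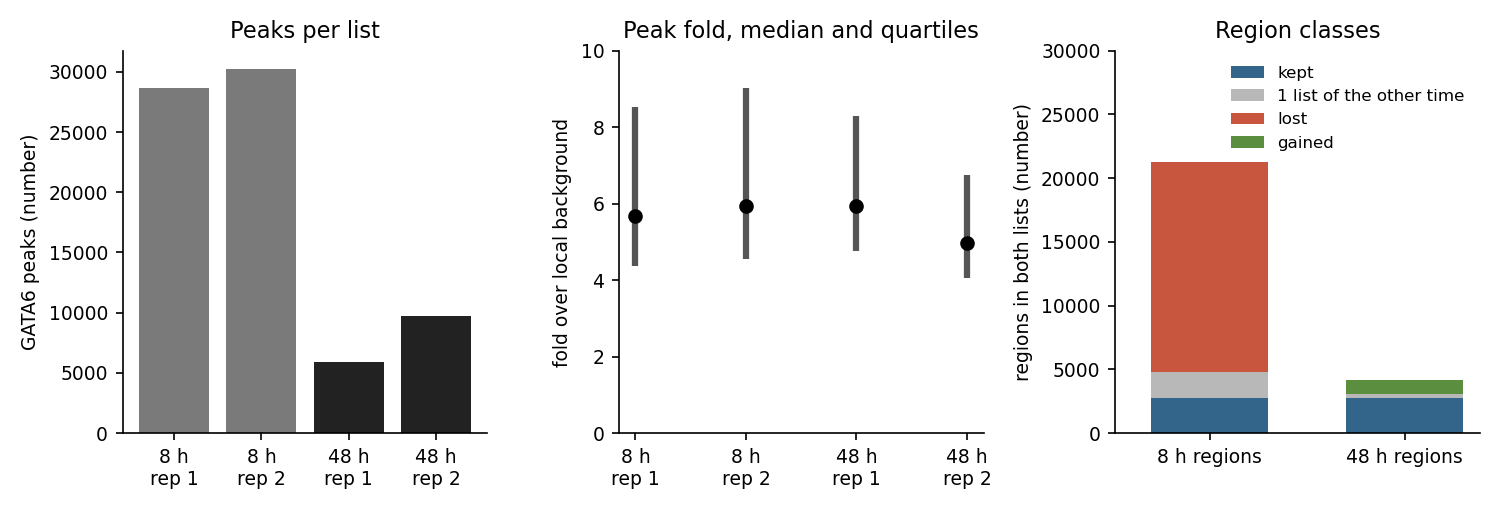
Left, number of GATA6 peaks in each list; center, median peak fold over local background (points) with quartiles (lines); right, number of 8 h and 48 h regions by class. The 8 h lists held 28676 and 30234 peaks and the 48 h lists 5933 and 9767, while the median folds over all peaks of the lists overlapped, and most 8 h regions were lost.

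The lost class made up most of the 8 h regions. Of the 21298 regions of 8 h, 77.4% were lost (95% exact binomial interval 76.9 to 78.0), 12.9% were kept (12.5 to 13.4) and 9.62% had a peak in 1 of the 48 h lists. Such intervals cover counting error only. Of the 4190 regions of 48 h, 65.8% were kept, 27.5% were gained (26.2 to 28.9), and 278 had a peak in 1 of the 8 h lists. Counting by list, 59.97% and 62.1% of the peaks of 48 h replicate 1 and 46.3% and 48.1% of those of replicate 2 overlapped the 8 h lists. Between replicates, 75.9% of the peaks of 8 h replicate 1 and 71.4% of those of 48 h replicate 1 lay in the other list of their time, but only 43.1% of those of 48 h replicate 2. The counts moved with single libraries: without 48 h replicate 1 there were 4198 kept and 4797 gained regions, without 48 h replicate 2 there were 2096 gained regions, and without 8 h replicate 1 there were 24936 lost regions.

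Stronger 8 h regions were kept more often. Median folds at 8 h were 9.89 and 11.2 in kept regions and 6.39 and 6.82 in lost regions (replicates 1 and 2). The peaks of kept regions were also wider at 8 h, 633 and 670.5 bp against 392 and 425 bp. At 48 h the kept regions had median folds of 7.24 and 7.20 and gained regions 6.05 and 5.85. When the 8 h regions were divided into 10 bins of about equal size by their mean 8 h fold, 8.13% of the weakest bin (fold 2.33 to 4.40), 7.36% of the fifth bin and 36.4% of the strongest (15.7 to 162; 95% interval 34.3 to 38.5) were kept. Even in the strongest bin 51.5% of the regions (49.4 to 53.7) had no peak in either 48 h list. Among the 5000 peaks of each list with the highest significance, the 8 h fold of kept regions exceeded that of lost regions by only 0.08 on the log2 scale, against 0.67 with all peaks.

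**Figure D2:**
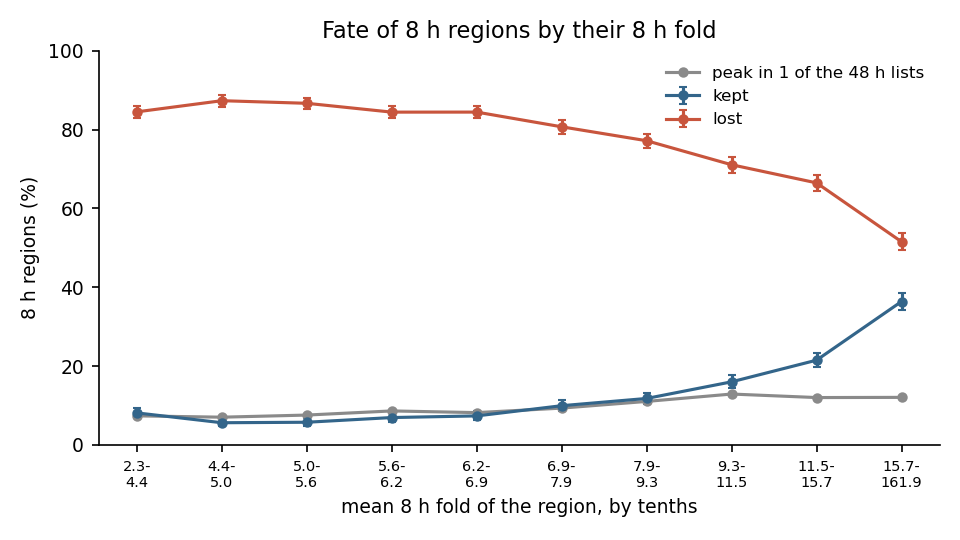
Share of 8 h regions (%) that were kept, lost, or had a peak in 1 of the 48 h lists, in 10 bins of about equal size by mean 8 h fold; error bars are 95% exact binomial intervals. The kept share stayed below 10% in the lower 6 bins and reached 36.4% in the highest, where 51.5% were lost.

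The 5 kept regions with the highest 48 h folds were strong at both times. In an intron of Cd59a, which encodes a complement inhibitor (chr2:104098212-104099457), the 8 h folds of 68.5 and 87.7 became 52.4 and 63.1 at 48 h. A region 24.7 kb upstream of Larp1, an RNA-binding protein gene (chr11:57983853-57984703), had 34.9 and 39.2 at 8 h and 43.4 and 67.0 at 48 h. The region in an intron of Ephb1 (chr9:101994858-101996236) had 51.1 and 47.4 at 8 h and 50.8 and 47.4 at 48 h. The values of both times overlapped in the Ephb1 region, were lower at 48 h at Cd59a and higher at Larp1. The others were a region 23.9 kb from the TSS of the RNA-binding protein gene Mex3b (chr7:82890777-82891587), with folds of 41.1 to 47.0 over the 4 lists, and a region 35.3 kb upstream of Flt1, a VEGF receptor gene (chr5:147760913-147762175), with 30.7 and 36.2 at 8 h and 38.2 and 45.8 at 48 h. All 5 also held peaks in both lists of GATA6 at 2 and 4 h, of SOX2 at 8 h and of GATA4 and SOX17 at 24 h.

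The 5 lost regions with the highest 8 h folds were as strong at 8 h as these. They lay in introns of Lpcat3, a phospholipid-remodeling enzyme gene (chr6:124683124-124684470, 64.2 and 64.5), of Zfpm1, which encodes the GATA cofactor FOG1 (chr8:122282532-122285960, 56.5 and 70.7), and of Srgap1, a GTPase-activating protein gene (chr10:121994717-121995889, 55.0 and 54.1), 102 kb upstream of Med13l (chr5:118457937-118459712, 58.5 and 69.5) and 1.09 kb upstream of the T cell kinase gene Lck (chr4:129574230-129575636, 66.8 and 57.3). By the rule of the class, none of the 5 had a peak in either 48 h list. The regions at Med13l and Lck were runs of 13 and 9 GATA copies. All 5 held peaks in both GATA6 lists at 2 and 4 h, and all but Zfpm1, with 1 list, in both SOX2 lists at 8 h. Only the Lpcat3 region held peaks in both GATA4 and both SOX17 lists.

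Kept regions were mostly bound by the PrE TFs at 24 h, and lost regions mostly were not. SOX17 peaks at 24 h were present in 83.9% and 90.8% of kept regions (SOX17 replicates 1 and 2), in 25.7% and 34.2% of lost regions and in 52.6% and 62.3% of gained regions. GATA4 peaks at 24 h were present in 69.1% and 58.2% of kept, 10.5% and 5.12% of lost and 22.0% and 13.6% of gained regions. For either factor the values of the 3 classes did not overlap. Kept regions had wider 8 h peaks than lost ones, and the part of width in these shares was not tested. The SOX17 lists held 27328 and 41979 peaks and the GATA4 lists 8427 and 4006. The part of list length in differences between the 2 factors was not tested either. Of the 2129 regions of 8 h with a peak in both lists of both factors, 63.4% were kept (95% interval 61.3 to 65.4) and 19.5% lost. Of the 3657 with both SOX17 lists and neither GATA4 list, 13.1% were kept and 70.3% lost, and of the 170 with GATA4 but not SOX17, 25.3% were kept. Of the 10408 regions with neither, 1.26% were kept (1.05 to 1.49) and 95.5% lost. The median 8 h fold was 10.97 in regions with both factors, 6.65 with SOX17 only and 6.61 with neither. In the strongest of 5 bins of 8 h fold (11.5 to 162), 72.4% of regions with both GATA4 lists and 8.34% of those with neither were kept, and 53.5% against 3.52% for SOX17. The SOX17 excess of gained over lost regions moved with either 48 h list. It was 27.5 percentage points with all lists. Without 48 h replicate 1 it was -3.54, when the 4797 gained regions came from 48 h replicate 2 alone. Without 48 h replicate 2 it was also smaller but stayed positive, with 2096 gained regions from 48 h replicate 1 alone. The GATA4 difference between gained and lost regions was not tested in this way.

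Pluripotency factors were compared in the same way. SOX2 at 8 h had peaks in 64.4% and 63.4% of kept regions, 32.0% and 28.9% of lost regions and 2.08% and 2.60% of gained regions. Before induction the values of kept and lost regions were close for SOX2, 24.8% and 23.0% against 24.6% and 23.1%, and overlapped for NANOG, 11.7% and 16.8% against 12.4% and 16.8%. NANOG at 8 h had peaks in 12.5% and 9.25% of kept, 5.31% and 3.87% of lost and none of the 1154 gained regions. The 95% exact binomial interval of that share reached 0.319% in either list. The SOX2 excess of kept over lost regions at 8 h was 33.5 percentage points, and 18.96 within bins of 8 h fold, so the fold moved with it. GATA6 itself had peaks at 4 h in close shares of kept and lost regions, 93.8% and 96.3% against 90.5% and 93.7%.

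**Figure D3:**
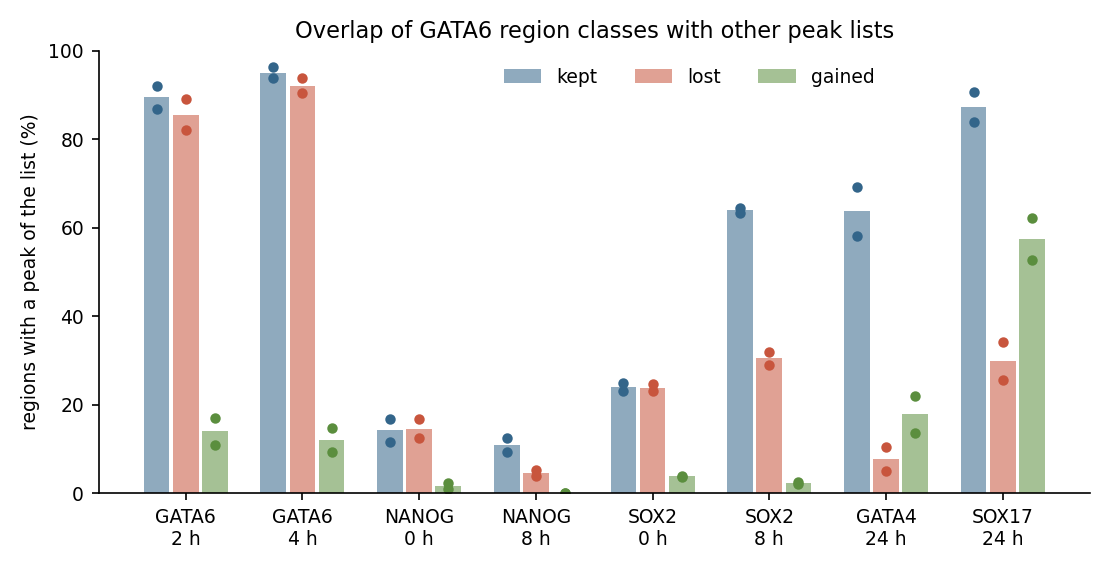
Share of kept, lost and gained regions (%) that held a peak of the list named below the axis; points are the 2 replicate lists and bars their mean. Kept and lost regions were close for GATA6 at 2 and 4 h and for NANOG and SOX2 at 0 h, and apart for SOX2 at 8 h and for GATA4 and SOX17 at 24 h, where kept regions reached 69.1% and 90.8%.

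GATA motifs were frequent in all classes. The motifs searched on both strands within 100 bp of the summit (201 bp in all) were AGATAA or AGATAG and likewise TGATAA or else TGATAG for GATA, and either ACAATA or instead ACAATG for SOX. Neighboring GATA matches in a run share bases, and a SOX match may overlap a GATA match. At least 1 GATA match was found in 79.4% of kept and 73.8% of lost regions at the 8 h summit, and in 81.2% of kept and 70.4% of gained regions at the 48 h summit, beside 65.8% of all 42555 summits on the nuclear chromosomes and 33.0% of windows 5 kb to their right. The difference of 5.54 percentage points between kept and lost regions was not stable: it was -0.61 within 50 bp of the summit and 0.16 in the top 5000 peaks of each list, and 3.39 without 48 h replicate 1. SOX matches were found in 31.1% of kept and 20.9% of lost regions at the 8 h summit and in 31.8% of kept and 37.3% of gained regions at the 48 h summit, beside 22.4% of all summits and 19.3% of the windows 5 kb away.

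**Figure D4:**
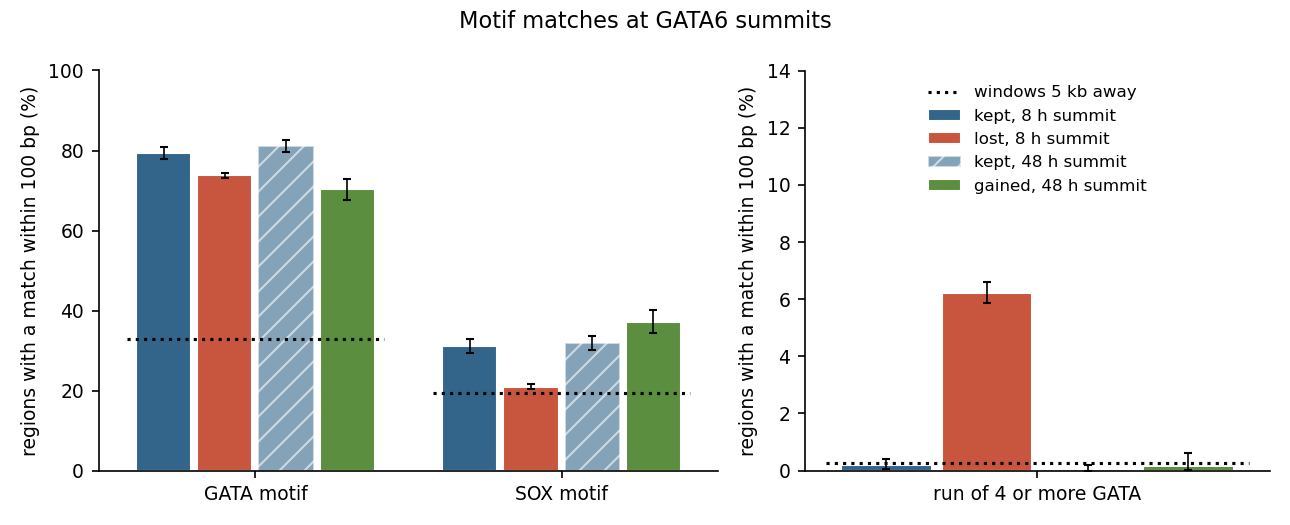
Share of regions (%) with a GATA or SOX match (left), or with a run of 4 or more GATA copies (right), within 100 bp of the summit named in the legend; error bars are 95% exact binomial intervals and dotted lines give the windows 5 kb from all summits. Runs of GATA copies stood out in lost regions (6.22%), and GATA matches were found in most regions of each class.

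GATA repeats, runs of 4 or more adjacent GATA copies as in the Med13l and Fgf4 sequences above, were almost all lost. Of the 1046 regions of 8 h with such a run, 1025 (98.0%) were lost, 16 had a peak in 1 of the 48 h lists and 5 (0.478%) were kept. The runs had a median of 10 and at most 21 copies. They were not weak at 8 h, with median folds of 8.29 and 8.63, and in the strongest 8 h bin 3 of 193 repeats were kept against 770 of 1935 other regions (39.8%). GATA6 had peaks in 91.6% and 91.9% of them at 4 h, against 91.1% and 94.2% of all 8 h regions. At 2 h it had peaks in 75.5% and 63.4% of them, against 89.6% and 83.0% of all 8 h regions. GATA4 had peaks at 24 h in 0.956% and 0.382% of them, against 20.8% and 14.0% of all 8 h regions. For SOX17 the shares were 3.15% and 3.73%, against 36.98% and 45.5%. Outside the runs, the kept share was 10.4% with no GATA match, 12.5% with 1, 16.6% with 2, 18.3% with 3 and 14.3% with 4 or more, for which the median 8 h folds rose from 6.09 and 6.50 with no match to 8.62 and 9.09 with 4 or more.

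Most regions of all classes lay far from a TSS. The share within 5 kb was 20.3% in kept, 17.9% in lost and 13.6% in gained regions, with median distances of 22.1, 26.6 and 35.98 kb. The excess of kept over lost regions was 2.43 percentage points, 0.44 without 8 h replicate 1 and 4.48 without 48 h replicate 1. Introns held 46.0%, 45.2% and 43.6% and intergenic sequence 51.2%, 52.3% and 54.2% of the kept, lost and gained regions. A region was assigned to the nearest protein-coding TSS within 50 kb, and genes were compared with the lists of PrE and Epi genes that the study defined from blastocyst expression (577 and 220 genes matched by symbol). PrE genes were the nearest gene of 9.68% of kept, 3.18% of lost and 8.32% of gained regions, and Epi genes of 1.70%, 2.42% and 0.52%. Conversely, of the 935 regions of 8 h at PrE genes 28.6% were kept (95% interval 25.7 to 31.6) and 56.1% lost, and of the 479 at Epi genes 9.81% were kept (7.30 to 12.8) and 83.3% lost (79.7 to 86.5), against 12.9% kept and 77.4% lost of all 8 h regions. The median 8 h folds were close, 6.88 at PrE genes, 6.44 at Epi genes and 6.94 over all. By gene, 29.3% of PrE genes, 18.6% of Epi genes and 7.10% of all 21924 genes had a kept region, and 13.9%, 2.73% and 2.82% had a gained region. A lost region was also more frequent at both lists, with 45.1% of PrE genes and 64.5% of Epi genes against 27.8% of all genes. The excess of PrE genes in gained over lost regions was 5.14 percentage points with all lists and 1.82 without 48 h replicate 1.

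Regions at TF genes of the PrE were mostly kept. For 7 genes, Gata6, Gata4, Sox17, Sox7, Hnf4a, Foxa2 and Foxa1, 13 of 20 regions of 8 h were kept (65.0%, against 12.9% of all 8 h regions) and 3 were lost (15.0%, against 77.4%). Of their 18 regions of 48 h 4 were gained, against 27.5% of all 48 h regions. Gata6 itself had 4 kept regions, none lost and 1 gained. The strongest at 48 h lay 45.8 kb upstream (chr18:11005319-11006954), with folds of 18.3 and 20.4 at 8 h and 16.1 and 12.2 at 48 h. Gata4 had 3 kept and 1 lost region, and the strongest at 48 h lay 38.6 kb upstream (chr14:63283214-63284123), with 11.8 and 13.9 at 8 h and 25.7 and 20.8 at 48 h. In the Gata4 region both 48 h values exceeded both 8 h values, whereas the opposite held at Gata6. Sox17 had 2 kept and 1 gained region, Foxa2 3 kept and 2 gained, the stronger with 8.01 and 5.50 at 48 h, and Sox7 1 kept and 1 lost. Foxa1 had 1 lost region, and Hnf4a had none of any class.

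Signalling, endocytic and matrix genes of the PrE held both kept and lost regions. Of the regions of 8 h, 11 of 20 were kept at 8 receptor and ligand genes (55.0%), 5 of 13 at 4 endocytic genes (38.5%), 15 of 35 at 9 basement membrane genes (42.9%) and 2 of 6 at 8 genes of secreted visceral endoderm proteins, against 12.9% of all 8 h regions. Pdgfra, the PDGF receptor that marks the PrE, had 5 kept and no lost or gained region. Lama1, a laminin chain of the early basement membrane, had a kept region 13.7 kb upstream (chr17:67683260-67683756, 5.65 and 4.78 at 8 h, 19.4 and 16.5 at 48 h) and 2 gained regions, of which the stronger lay close by (chr17:67685158-67685813, 10.7 and 7.73). Both 48 h values of the kept Lama1 region exceeded both 8 h values, and GATA4 and SOX17 had peaks in both lists at each. Lamc1, another laminin chain, differed with 5 kept and 9 lost regions. Dab2, an endocytic adaptor, had 3 lost regions, of which the strongest was a repeat of 11 GATA copies (19.2 and 23.2), and 2 gained regions (the stronger with 7.26 and 5.46 at 48 h). Afp, Apob, Apom, Trf and Rbp4, which encode serum proteins of the visceral endoderm, had no region of the 3 classes.

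Regions at pluripotency genes were mostly lost. For 18 genes, 55 of 74 regions of 8 h were lost (74.3%) and 5 were kept (6.76%), shares close to those over all 8 h regions (77.4% and 12.9%). Nanog had 2 lost regions, the stronger 4.69 kb upstream of its TSS (chr6:122702480-122703128, 8.27 and 12.0 at 8 h), and Sox2 had 2 (the stronger with 9.17 and 9.54). Pou5f1, which encodes OCT4, had 5 lost and 1 kept, Klf5 12 lost and 2 kept, and Esrrb, a nuclear receptor of the naive network, 12 lost and 1 kept. The strongest lost Esrrb region, in an intron (chr12:86394981-86395882), had 21.5 and 20.7 at 8 h and no 48 h peak, and the kept one (chr12:86480133-86481167) had 11.5 and 15.3 at 8 h and 12.5 and 8.26 at 48 h. The lost region was the stronger of the pair at 8 h. Fgf4 had 2 lost regions, the stronger a repeat of 7 GATA copies (16.6 and 16.1), and Tdgf1, the Nodal coreceptor, had 1 lost (14.4 and 13.6). Of the 10 regions of 48 h at these genes 4 were gained, against 27.5% of all 48 h regions. Klf4 had 2 gained regions, and Tfcp2l1 and Prdm14 had 1 each, beside 1 lost region at each gene. The stronger gained region of Klf4 (chr4:55515889-55516279, 9.53 and 8.35 at 48 h) held GATA6 peaks in both lists at 2 h and at 4 h, but in neither at 8 h. The Nodal region 1.81 kb upstream was lost (15.9 and 21.4) although GATA4 and SOX17 had peaks there in both lists at 24 h. At 6 trophectoderm genes 12 of 17 regions of 8 h were lost (70.6%), 2 were kept, both at Elf5, and none was gained.

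Within the kept regions the fold at 48 h was compared with that at 8 h by limma on log2 fold, after each list was centered on its median over kept regions. The centering took out a fall of 0.54 on the log2 scale between 8 h and 48 h, so changes are relative to the median kept region. Of the 2758 kept regions 532 were higher at 48 h (19.3%) and 444 lower (16.1%) at an adjusted p of at most 0.05 (Benjamini-Hochberg over all kept regions). Without centering 177 were higher and 1054 lower, so the share of higher among called regions fell from 54.5% to 14.4%. All 532 higher regions had a change larger than the fall taken out, so their mean log2 fold also rose before centering. That all 444 lower regions also fell before centering follows from the arithmetic. Fewer were called without an 8 h library: 107 higher and 95 lower without 8 h replicate 1, and 189 and 181 without 8 h replicate 2. Over the kept regions the log2 folds of the replicates correlated with 0.889 at 8 h and 0.756 at 48 h, and lists of different times with 0.358 to 0.389 (Pearson, across 2758 regions, which are not independent).

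Since the calls rest on the difference between 48 h and 8 h, low 8 h folds in the higher and high 8 h folds in the lower regions follow from the selection and are given as a description. Those higher at 48 h went from median folds of 5.47 and 6.02 at 8 h to 9.42 and 9.21, and those lower from 20.1 and 22.1 to 5.93 and 5.89. SOX2 had peaks at 8 h in 38.9% and 38.3% of the higher and in 87.4% and 87.6% of the lower regions, and NANOG at 8 h in 2.07% and 0.564% against 29.5% and 23.4%. The 8 h fold moved with these shares, and its part in them was not tested. GATA4 and SOX17 at 24 h were closer, with GATA4 in 69.2% and 57.0% of the higher and 76.6% and 66.7% of the lower regions, and SOX17 in 85.5% and 91.2% against 82.2% and 90.1%. Of the 267 kept regions at PrE genes 67 were higher (25.1%) and 38 lower (14.2%), and of the 47 at Epi genes 2 were higher (4.26%) and 11 lower (23.4%), against 19.3% and 16.1% of all kept regions.

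Among the largest relative rises were those at Rabggtb, a subunit gene of a Rab prenyltransferase (intron, chr3:153910058-153910547), where the 8 h folds of 3.70 and 3.49 became 25.0 and 32.4 at 48 h (log2 change 3.53, SE 0.29, limma adjusted p = 5.12e-05) and 146 kb from the TSS of the TF gene Maf (chr8:115561129-115562476, 6.06 and 4.56, then 24.2 and 25.4). Both had GATA4 peaks in both lists at 24 h. The largest falls were on mitochondrial DNA (chrM:10676-16299, 167 and 157, then 12.9 and 14.9), in an intron of Lbr, a lamin receptor gene (chr1:181839360-181840297, 54.1 and 70.7, then 4.08 and 8.70), and 7.04 kb upstream of the protease gene Sppl2a (chr2:126939914-126941195, 51.7 and 65.2, then 5.29 and 5.99). The mitochondrial region held a peak in each of the 16 lists compared, also those of the other proteins and at 0 h.

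Among the listed PrE genes the rises were at Lama1 (log2 change 2.33, SE 0.29, limma adjusted p = 0.000268), at Gata4 (1.39, SE 0.28, 0.00325), Cubn, an endocytic receptor (9.74 and 8.77 at 8 h, 17.4 and 15.4 at 48 h; 1.37, SE 0.28, 0.00358), and Apoe, an apolipoprotein (11.3 and 14.6, then 22.1 and 20.1; 1.25, SE 0.27, 0.00496), among others. Over the lists, 3 of 13 kept regions of PrE TF genes were higher and 0 lower, 4 and 3 of 11 at signalling genes, 2 and 0 of 5 at endocytic genes, 4 and 3 of 15 at basement membrane genes and 2 and 0 of 2 at secreted proteins, against 19.3% higher and 16.1% lower of all kept regions. The shares at TF genes (23.1% higher) and basement membrane genes (26.7% higher and 20.0% lower) rest on few regions and were near those. At pluripotency genes 0 of 5 were higher and 1 lower, at Klf5 (33.3 and 40.8, then 11.7 and 10.97, -1.16, SE 0.27, limma adjusted p = 0.00679). Single genes held changes in both directions: of the 5 Pdgfra regions 2 were higher (17.5 and 15.4, then 21.3 and 21.1 in the stronger) and 2 lower (24.7 and 33.0, then 9.84 and 10.1 in the one farther from the TSS). Neither the Gata6 region 45.8 kb upstream (log2 change 0.08, limma adjusted p = 0.844) nor the Foxa2 region 32.7 kb downstream (24.0 and 22.4, then 11.8 and 8.74; -0.65, 0.0968) was called. Of the 28 called regions of listed genes or of the largest changes, 6 were called under each alternative that kept the time points of the list names and gave a value, namely that of Lama1 and the 5 of the largest changes. The number not called was 20 without 8 h replicate 1, 16 without 8 h replicate 2, 7 without 48 h replicate 1, 8 without 48 h replicate 2 and 9 without centering. The highest adjusted p over these alternatives was 0.0359 at Lama1, 0.0652 at Gata4, 0.0582 at Cubn, 0.0848 at Apoe, 0.0609 at Klf5, and 0.481 and 0.114 at the 2 Pdgfra regions with values here.

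**Figure D5:**
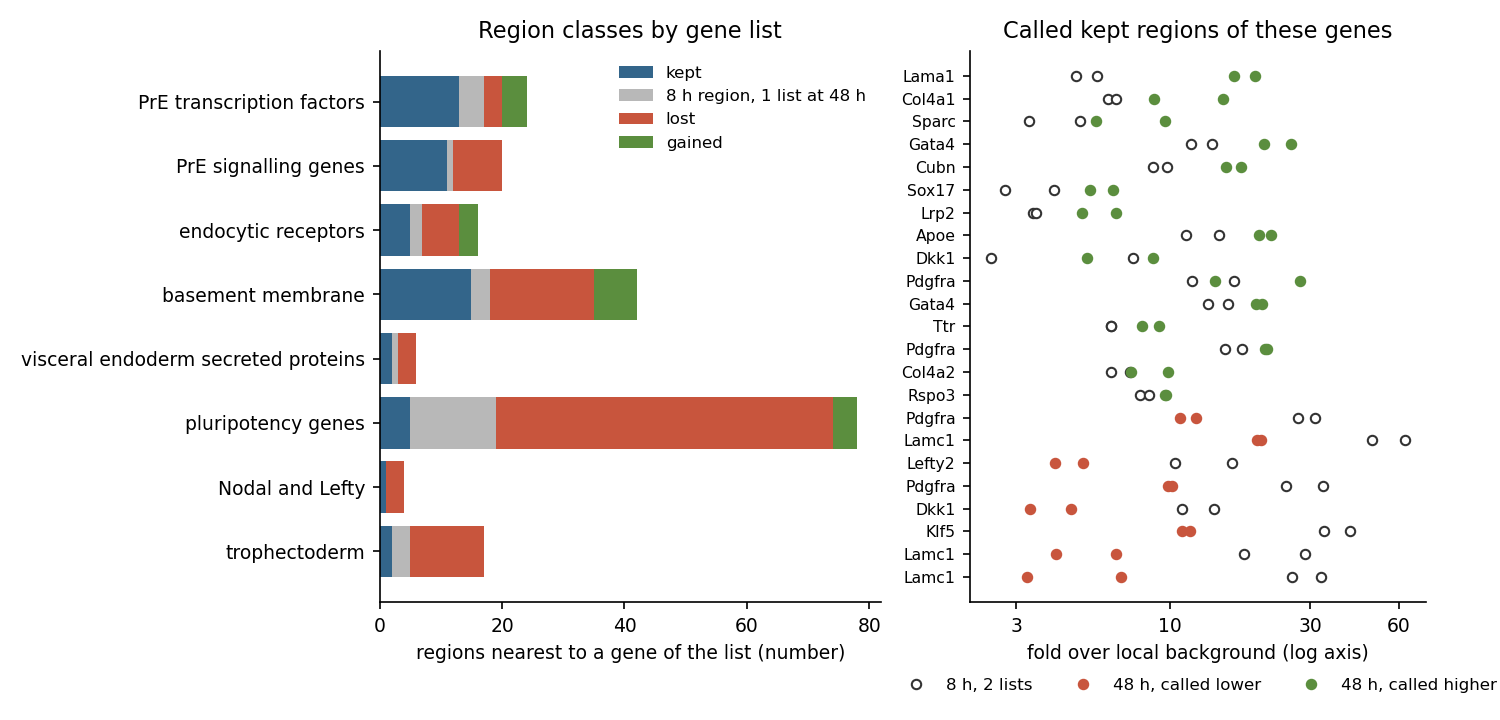
Left, number of regions of each class whose nearest TSS within 50 kb belongs to a gene of the list; right, folds of the kept regions of these genes that limma called higher or lower, with 2 lists per time point and a log axis. Kept regions made up 13 of 20 regions of 8 h at PrE TF genes and 5 of 74 at pluripotency genes, and the 48 h values of called regions lay to the right of their 8 h values at Lama1 and Gata4 and to the left at Lamc1, while Pdgfra and Dkk1 had calls in both directions.

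Gained regions were in large part first seen at 48 h. Of the 1154 gained regions 866 (75.04%) had no GATA6 peak in any list at 2, 4 or 8 h, and 288 (24.96%) had such a peak at 2 or 4 h. The 5 with the highest folds were 131 kb from the TSS of Fgfr2, an FGF receptor gene (chr7:130134897-130135292, 23.8 and 24.7 at 48 h), in an intron of Maml3, a Notch coactivator gene (chr3:51823240-51824094, 24.8 and 20.7), 227 kb upstream of Clnk (chr5:39103105-39103846, 22.3 and 20.4), 110 kb from the TSS of Gm525 (chr11:89183200-89183841, 18.7 and 21.7) and 66.4 kb upstream of Prdm11 (chr2:93112333-93112852, 13.9 and 23.9). All of these values were below the 48 h folds of the 5 strongest kept regions, of which the lowest was 38.2. All 5 lacked a GATA6 peak at 2 and 4 h, and GATA4 and SOX17 had peaks in both lists at Maml3, Clnk and Prdm11. Of the 681 gained regions within 50 kb of a TSS, 26.7% shared their nearest gene with a kept region, 39.5% with a lost region and 47.4% with neither. Kept and lost regions often lay at the same gene: 933 of the 1557 genes with a kept region also had a lost one (59.9%), against 6099 of all 21924 genes (27.8%). Genes with a gained region also more often had a lost one (40.4%) or a kept one (25.4%, against 7.10% of all genes). All genes include those without any region, and the part of region density in these shares was not tested.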

How the data were processed

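CUT&RUN peak lists of GATA6 at 8 h were compared with those at 48 h. Lists of GATA6 at 2 and 4 h, of NANOG and of SOX2 (both at 0 and 8 h), and of GATA4 and of SOX17 (both at 24 h) gave context, with 2 replicate lists each. The authors mapped read pairs with Bowtie2 to mm10, removed blacklisted reads with Samtools, kept duplicates and called narrow peaks with MACS for each library against a 48 h control antibody library. The deposited lists give per peak the fold, a ratio over local background, and the −log10 p-value and −log10 q-value. Every q-value was at or below 0.05. The deposited lists hold no read totals, and those of the study's supplement were not used here, so background coverage was recovered from fold and p by finding the value that made pileups whole within 0.02%.

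Samples were grouped by the names of the deposited lists. The study states that replicates were done independently but not whether each was a separate culture, and p-values measure only the spread between these libraries. Merged regions, motifs and nearest TSS (GENCODE M21, GRCm38) were computed in Python 3.11.15 with pysam 0.24.0, pandas 2.3.3 and scipy 1.17.1. Lists were compared by two-sided exact permutation tests, and kept regions by limma 3.58.1 (R 4.3.3) on log2 fold centered per list, with Benjamini-Hochberg adjusted p, a step tested on simulated data. Classes are described by shares with 95% exact binomial intervals, without a test, since regions are not replicates. The members, lists and tests were chosen with earlier results of these data known. Named were the 5 strongest regions of each class, the 3 kept regions with the largest rise and the 3 with the largest fall, and genes of the lists given in the text with their strongest region. The other kept regions of listed genes for which limma values are given were chosen after their values were seen. A listed gene, a motif and 1 of the largest rises are not reported here. Alternatives were the replicate block, leaving out each list, the sample record's time points, stricter peaks, other windows and other scalings. Other samples of the series were not analysed here.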

Additional observations from a re-analysis of the deposited data

How the results depend on the processing

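Of the alternative values, 93 were classed as the same, 74 as moved and 11 as changed in sign. For peak number, median fold, width and TSS share of the lists, any value of the same sign was classed as the same. The 93 therefore include values far from those reported. With the top 5000 peaks the log2 median fold differed by -1.17 against -0.098, and the width by -464 against -104 bp. With the time points of the sample record the log2 peak number differed by -0.79 against -1.95. Library set and time cannot be told apart, and each time has 2 lists. Background coverage was lowest in 48 h replicate 1, and its part in the results was not tested. Where leaving out a list left 1 sample, its spread was taken to equal that of the other time. The causes were not tested.

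The replicate numbers only name the lists, since nothing says that they mark a shared culture or day, and the deviations of same-numbered lists did not correlate (Pearson r = 0.01 over 2758 kept regions). With the replicate block, 552 regions were called higher and 456 lower, so both counts of calls moved by less than 1.5 times. The exact permutation p was 0.5 for peak number, width and TSS share and 1.00 for fold. With the block this p cannot fall below 0.5, and without it not below 0.3333. No test of the lists could therefore pass the threshold in either fit. All 28 called regions of listed genes or of the largest changes were also called with the block.

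With the time points of the sample record, kept, lost and gained regions numbered 18719, 9419 and 749, and 298 and 212 kept regions were called higher and lower. The log2 difference in median fold was 0.081, the kept to lost fold 0.91, and the differences in percentage points were 20.98 for GATA motifs, 3.30 for GATA repeats, 21.2 and -4.08 for SOX17 in kept and gained over lost regions, 30.2 for SOX2, -2.18 for TSS, and 1.24 and 1.32 for PrE genes in kept and gained regions. With −log10 q of at least 5 there were 1828 kept regions, 352 and 280 calls, a list TSS difference of 0.22, a fold difference of 0.59, -6.89 for repeats and 32.9 for SOX17 in gained regions. With the top 5000 peaks there were 1198 kept, 2333 lost and 1811 gained regions, with 2.69 for the list TSS share, 0.082 for fold, 0.16 for GATA, -11.2 for repeats, 55.8 and 37.4 for SOX17, 21.3 for SOX2, 4.56 for TSS, 7.98 for PrE and 0.029 for Epi genes. The lists of these peaks differed by -1.17 in log2 median fold and by -464 bp in median width. Within bins of 8 h fold the values were -6.49 for repeats, 55.6 for SOX17 and 18.96 for SOX2. A window of 50 bp gave -0.61 for GATA and -2.11 for repeats, and one of 250 bp gave -10.3 for repeats. A TSS limit of 10 kb gave 3.07 and 2.08 for PrE genes in kept and gained regions. Without centering 177 regions were higher and 1054 lower. Chosen after the data were seen, leaving out GATA repeats gave 7.24 for GATA, 55.5 and 25.8 for SOX17 and 5.06 for PrE genes in gained regions, and pileup over background coverage in place of fold gave 657 higher and 556 lower calls.

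Leaving out each list in turn gave log2 differences of -2.31 to -1.59 in peak number and -0.23 to 0.0315 in median fold, -112.5 to -95.5 bp in width and -1.30 to 0.0513 points in list TSS share. There were 2851 to 4198 kept, 17099 to 24936 lost and 1255 to 4797 gained regions, with 107 to 656 higher and 95 to 595 lower calls. The kept to lost contrasts ranged over 0.51 to 0.89 for log2 fold, 3.39 to 10.6 for GATA, -5.59 to -4.83 for repeats, 50.1 to 60.8 for SOX17, 27.01 to 38.5 for SOX2 and 0.44 to 4.48 for TSS. Gained over lost regions differed by -3.54 to 34.3 for SOX17 and 1.82 to 4.93 for PrE genes.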
